A study of Homo sapiens with 2 samples.

Results

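The 10 genes described here are *MECOM*, *PRDM16*, *HLF*, *MLLT3*, *MSI2*, *SPINK2*, *PROCR*, *CD34*, *THY1* and *PROM1*, which are linked to the identity or the surface of blood stem cells. They were taken by symbol from the 36601 genes of both count matrices, and all 10 were among the 29942 genes found in more than 5 cells. The cells came from 2 blood-generating heart-forming organoids (BG-HFOs), named 32.7 and 33.10, each dissociated alone on day 14 and read as 1 single-cell RNA library of the 3′ type. Both were grown in Matrigel from the human embryonic stem cell line hES3 NKX2.5-eGFP, which reports the cardiac gene *NKX2-5* with a green fluorescent protein. Both had the same biphasic WNT modulation and the same haemato-endothelial cytokines and growth factors. The design therefore holds no treated and untreated group, and the comparisons were made between cell classes. Both organoids came from 1 cell line, so their spread says nothing of other lines.

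A blood stem cell arises in the embryo from haemogenic endothelium, a vessel lining that switches on *RUNX1* and gives rise to blood. Several of the genes that later keep stem cells undivided or uncommitted are already active in that lining, and several of the surface proteins used to sort stem cells are also carried by endothelium, epithelium or fibroblasts. A gene of this set is thus no marker of stem cells by itself, and its lineage has to be read cell class by cell class.

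The cells were placed into 13 classes from fixed marker lists. The 10 genes, *RUNX1* and the 33 related genes described below were left out of the clustering. The classes were arterial and venous endothelium (AE and VE), cardiomyocytes (CM), mesenchyme (MES), proepicardium and septum transversum (PE/ST), posterior foregut endoderm (PFE), megakaryocytes (Mk), erythroid cells (Ery), a mixed Ery/Mk class, monocytes and macrophages (Mo), granulocytic cells (Gran), a class with both endothelial and cardiac markers (ELC) and a class with endothelial and erythroid or progenitor markers (EPP). Organoid 32.7 gave 16792 cells (median 7842 UMIs, or unique molecules, per barcode) and organoid 33.10 gave 19893 (median 8284.5). Of 25 clusters 9 stayed unnamed and held 29.3% and 23.4% of the cells. No cluster was led by markers of haematopoietic progenitor cells (HPCs). The study marked its HPC cluster with genes such as *SPN*, *PTPRC*, *CD44*, *MYB*, *GATA2* and *TAL1*. These took no part in the clustering or in the HPC markers used here. The Gran cluster, led by granule genes, raised 9 of the 12 HPC markers (mean log2 ratio 1.88), not far from the Mo cluster with 7 (1.93) and an Mk cluster with 8 (1.26), and took the place of HPCs in the comparisons. In ELC 80.6% and in EPP 81.9% of the cells were predicted doublets, so these classes are described only, and in Gran and Mo the shares were 21.0% and 20.6%. PFE held 467 cells in organoid 32.7 but 32 in organoid 33.10. The libraries shared 100 barcodes.

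*PROCR* and *MECOM* are shown with the sequence before their start site because both were high in endothelium. Of the 250 bases of the *MECOM* window 63 lie in its own exons and were left out, so 187 are printed. The windows come from RefSeq (GRCh38.p14) and run 5′ to 3′ on the gene's strand. Capitals mark matches to an ETS-type motif, AGGAAG, searched on both strands together with a RUNX-type motif, TGTGGT, and a GATA-type motif, AGATAA. 
*PROCR*, chr20:35171822-35172071, plus strand: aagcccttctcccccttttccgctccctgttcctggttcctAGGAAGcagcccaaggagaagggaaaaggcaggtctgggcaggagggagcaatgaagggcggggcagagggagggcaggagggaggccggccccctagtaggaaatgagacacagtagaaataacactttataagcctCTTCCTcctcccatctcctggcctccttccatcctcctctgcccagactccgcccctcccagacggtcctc
*MECOM*, chr3:169663776-169663962, minus strand: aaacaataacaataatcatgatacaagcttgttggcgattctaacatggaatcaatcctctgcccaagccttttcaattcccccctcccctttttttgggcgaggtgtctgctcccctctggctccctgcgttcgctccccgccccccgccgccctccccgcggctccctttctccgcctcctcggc
The *PROCR* window held 2 ETS-type matches, 1 on each strand, and the *MECOM* window held none of the 3 motifs. Among all 27303 promoter windows of 250 bases, 28.7% held the ETS-type, 10.9% the RUNX-type and 9.37% the GATA-type letters. Of the other members in the table, *SPINK2* held 1 ETS-type match, and *HLF*, *MLLT3* and *MSI2* held none of the 3 motifs. The windows of *CD34* and *PROM1* lay wholly within exons of their own genes and are not described. *PRDM16* and *THY1* were not matched. A match is a description of letters and no site of binding.

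Levels are given as CPM, the UMIs of a gene as parts of 1000000 UMIs summed over the cells of 1 class in 1 organoid. A class sum cannot tell fewer expressing cells from less RNA per cell. Levels are compared between classes and never between genes, since reads within introns were counted and the genes span from 9.51 kb (*THY1*) to 580.277 kb (*MECOM*).

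*MECOM* (ENSG00000085276, chr3:169083499-169663775 in GRCh38, minus strand) encodes a zinc-finger transcription factor needed by blood stem cells and expressed in early endothelium. Its level was 961 and 1002 CPM in AE of organoids 32.7 and 33.10, and 766 and 774 CPM in VE. The 2 endothelial classes did not overlap each other or any other class. ELC (503 and 609 CPM) and EPP (415 and 562 CPM) followed and overlapped each other. Next stood PFE (141 and 267 CPM), MES (175 and 210 CPM), PE/ST (174 and 188 CPM) and CM (154 and 194 CPM), none of which separated from its neighbour in the order. The MES clusters were unlike. The one led by *DCN* and *LUM* held 40.4 and 75.6 CPM, within the range of the blood classes. The others held 243 and 224 CPM, and 177 and 218 CPM. The blood classes lay lowest, with Gran at 95.6 and 65.7 CPM, Mo at 65.6 and 47.3 CPM, Mk at 30.6 and 36.4 CPM and Ery at 16.2 and 20.7 CPM. Without predicted doublets Mo was at 16.5 and 8.32 CPM, below Mk at 27.3 and 29.8 CPM. A long non-coding gene, *MECOM-AS1*, overlaps *MECOM* on the other strand. The gene ENSG00000242795 overlaps it on the same strand, so reads of the 2 may be shared.

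*PRDM16* (ENSG00000142611, chr1:3069168-3438621, plus strand), a relative of *MECOM* that acts in stem cells, brown fat and heart, was low and patchy. It stood at 21.9 and 16.8 CPM in CM, 14.8 and 20.1 CPM in PFE and 10.6 and 13.1 CPM in AE. In VE it was only 2.22 and 1.34 CPM, below both AE values. The level in MES was 5.25 and 2.75 CPM, and no blood class exceeded the MES values. *PRDM16* was found in 179 and 193 AE cells and in 18 and 9 VE cells.

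*HLF* (ENSG00000108924, chr17:55264960-55325187, plus strand) encodes a transcription factor of the PAR bZIP family that is among the most stem-cell-restricted genes of the blood system. It was close to absent, with 39 UMIs in 39 cells of organoid 32.7 and 35 UMIs in 32 cells of organoid 33.10. They were scattered, with 9 and 8 UMIs in MES, 8 and 2 in PFE, 7 and 4 in CM, 6 and 1 in Gran and 4 and 11 in unnamed clusters. ELC, EPP, Ery and Mo carried 0 in both organoids. *RUNX1* was found in 14 of the *HLF* cells in each organoid, and in 25.4% and 33.7% of all cells.

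*MLLT3* (ENSG00000171843, chr9:20341669-20622499, minus strand), a chromatin reader that helps to keep transcription of stem cell genes active, was lowest where *MECOM* was highest. Its level was 189 and 180 CPM in CM, 124 and 118 CPM in PE/ST and 106 and 96.3 CPM in Ery, and these 3 classes did not overlap in sequence. AE was lowest of the 13 classes, at 11.9 and 15.6 CPM, and VE stood at 35.7 and 46.5 CPM. Among blood classes Mk (73.4 and 78.4 CPM) lay above Gran (40.5 and 34.9 CPM) and Mo (19.7 and 25.0 CPM).

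*MSI2* (ENSG00000153944, chr17:57255851-57684689, plus strand), an RNA-binding protein that regulates translation in stem and progenitor cells, was the most evenly spread member. PE/ST held 234 and 351 CPM, CM 198 and 255 CPM and MES 167 and 246 CPM, and these classes overlapped. At the low end AE held 51.6 and 67.9 CPM and Mo 43.9 and 61.6 CPM, which overlapped as well. Organoid 33.10 was higher than organoid 32.7 in all 13 classes.

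*SPINK2* (ENSG00000128040, chr4:56809860-56821742, minus strand), a serine protease inhibitor whose transcript marks primitive blood progenitors, was rare. Organoid 32.7 had 89 UMIs in 73 cells and organoid 33.10 had 81 UMIs in 75 cells. In Gran it was found in 16 of 588 cells of organoid 32.7 (28 UMIs, up to 7 in 1 cell) and in 4 of 201 cells of organoid 33.10 (4 UMIs). All of these Gran cells also had a *RUNX1* UMI, which was found in 72.1% and 89.6% of all Gran cells without thinning. PE/ST held it in 17 and 28 cells, of which 0 and 2 had *RUNX1*, and MES held it in 20 and 15 cells, of which 6 and 2 did. Over all cells of these classes *RUNX1* was found in 4.46% and 8.09% of PE/ST and 18.4% and 16.6% of MES. The rare signal thus lay both in granulocytic cells, where *RUNX1* was common, and in stromal cells, where it was not.

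*PROCR* (ENSG00000101000, chr20:35172072-35216240, plus strand) encodes the endothelial protein C receptor, which sits on vessels and on blood stem cells. Its level was 190 and 163 CPM in VE and 114 and 92.5 CPM in AE, with no overlap. ELC, PFE and EPP lay between 44.4 and 79.2 CPM. Gran (15.6 and 16.3 CPM), Mk (12.8 and 12.4 CPM) and Ery (3.19 and 4.65 CPM) were the lowest classes.

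*CD34* (ENSG00000174059, chr1:207880972-207911402, minus strand), a sialomucin of endothelium and blood progenitors, reached 202 and 225 CPM in AE against 106 and 84.8 CPM in VE. Mk (27.8 and 18.5 CPM) and Gran (23.9 and 21.2 CPM) overlapped each other. Within Mk, the cluster with 8 HPC markers raised held 39.2 and 25.2 CPM, above Gran, and the other held 19.6 and 14.5 CPM, below it. Mo stood at 11.4 and 12.6 CPM and Ery/Mk at 13.1 and 10.4 CPM. CM, MES, PE/ST and Ery lay between 1.29 and 4.04 CPM, so that Mk and Gran stood above every stromal, cardiac and erythroid value.

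*THY1* (ENSG00000154096, chr11:119415476-119424985, minus strand), the CD90 antigen of stem cells, fibroblasts and vessels, was 258 and 227 CPM in AE and 246 and 231 CPM in VE, which overlapped. ELC (146 and 123 CPM), MES (135 and 119 CPM) and EPP (161 and 82.9 CPM) followed and overlapped, while PE/ST had 45.1 and 47.6 CPM and CM 17.1 and 16.1 CPM. Gran stood at 35.2 and 27.2 CPM, Mo at 21.2 and 12.9 CPM, and Mk (5.57 and 3.76 CPM) and Ery (4.22 and 3.99 CPM) were lowest.

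*PROM1* (ENSG00000007062, chr4:15963076-16084378, minus strand), the CD133 antigen of stem cells and of many epithelia, was led by PFE with 19.0 and 68.4 CPM. PE/ST (14.2 and 13.1 CPM) and MES (14.6 and 12.3 CPM) overlapped, and CM had 4.97 and 4.95 CPM. AE held 0.302 and 0.217 CPM, from 8 and 5 UMIs, and Mk held 0.0899 and 0.099 CPM, from 1 and 3 UMIs. *FGFBP2* overlaps *PROM1* on the same strand, so reads of the 2 genes may be shared.

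**Figure D1:**
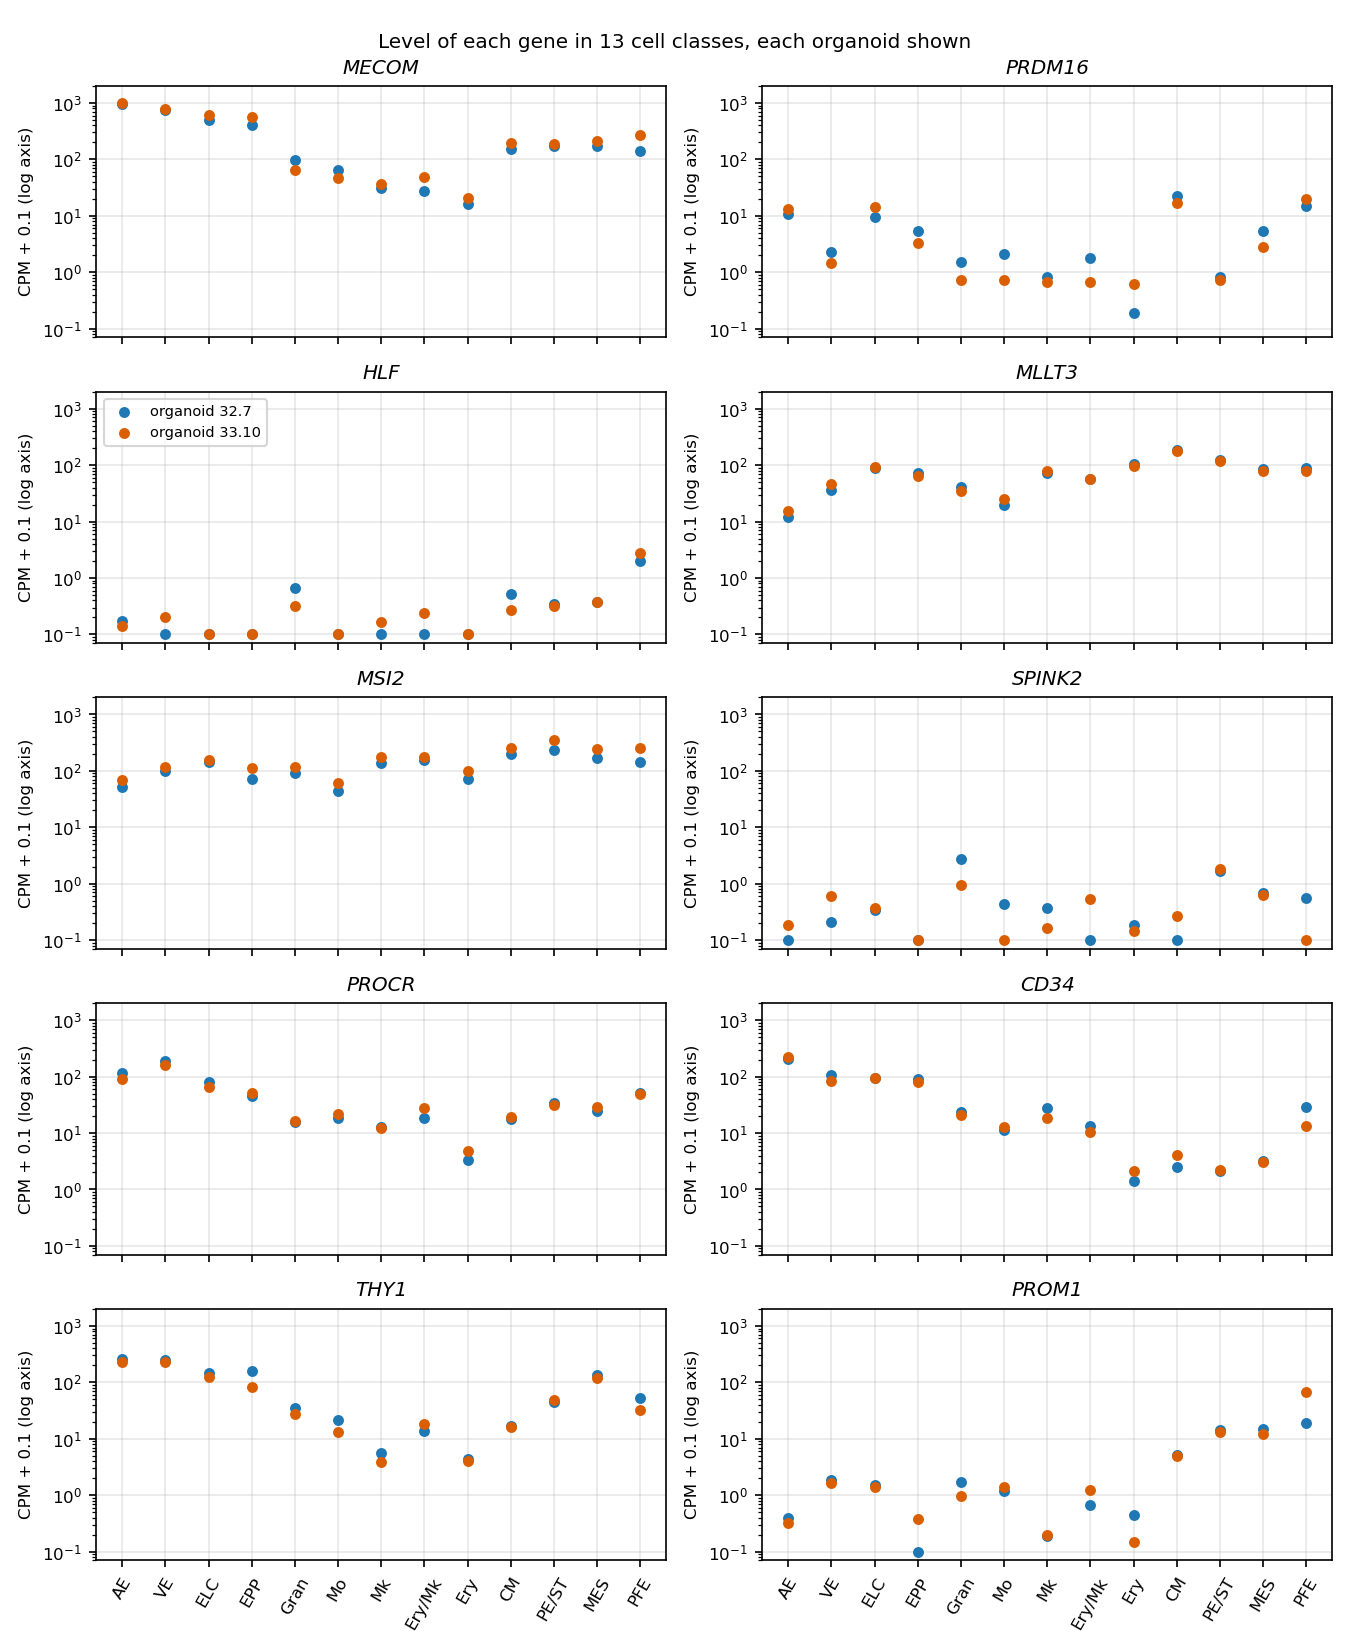
Level of each of the 10 genes in the 13 cell classes, in CPM with 0.1 added, on a log axis. Each point is 1 organoid (blue 32.7, orange 33.10). *MECOM*, *PROCR*, *CD34* and *THY1* are highest in the endothelial classes AE and VE, *MLLT3* is lowest in AE (11.9 and 15.6 CPM), and *HLF* and *SPINK2* stay near the bottom everywhere.

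The highest mean level lay in AE for *MECOM*, *CD34* and *THY1*, in VE for *PROCR*, in CM for *PRDM16* and *MLLT3*, in PE/ST for *MSI2* and in PFE for *HLF* and *PROM1*. Only *SPINK2* had its highest mean in a blood class, Gran, where its 2 organoids overlapped PE/ST. The lowest mean lay in Ery for 5 of the members, *MECOM*, *PRDM16*, *PROCR*, *CD34* and *THY1*.

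Arterial and venous endothelium differed in 6 of the 8 members with at least 10 UMIs in each class, 2 higher and 4 lower in AE, where 17.6% of all 21671 genes tested were called (7.6% higher and 10% lower). Here and below, summed UMIs of both organoids (n = 2 per class) were tested with edgeR's quasi-likelihood F-test, with Benjamini-Hochberg adjusted p-values. The classes come from the very cells that were compared, so each p sets a difference only against a spread between organoids. The fit shared that spread across genes and, for classes, over all 13 of them. A low p is thus no measure of how closely the 2 organoids agreed. *PRDM16* was higher in AE, by a log2 fold change of 2.83 ± 0.42 (SE, edgeR adjusted p = 6.33e-05), and so was *CD34*, by 1.25 ± 0.21 (edgeR adjusted p = 0.000177). *MLLT3* was lower in AE, at -1.49 ± 0.16 (edgeR adjusted p = 1.17e-06). *PROCR* was lower as well, at -0.67 ± 0.17 (edgeR adjusted p = 0.00726), a call lost when 10% of each sum was removed as free RNA (adjusted p = 0.097). *MSI2* was lower by a log2 fold change of -0.76 ± 0.24 (edgeR adjusted p = 0.0356), which was lost without the low-count filter (adjusted p = 0.0692) and without predicted doublets (adjusted p = 0.0791). *PROM1* was lower at -2.52 ± 0.61 (edgeR adjusted p = 0.00578) on 13 and 31 UMIs in all. The difference was 0.45 ± 0.25 for *MECOM* and 0.12 ± 0.26 for *THY1* (edgeR adjusted p = 0.253 and 0.818). The median log2 fold change of the 8 members was -0.27, against -0.00458 over all genes.

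Set against arterial endothelium, Gran and Mk had much less of *MECOM*, *PRDM16*, *PROCR*, *CD34* and *THY1* and more of *MLLT3* and *MSI2*. In Gran all 8 members with at least 10 UMIs there and in AE were called, 5 lower and 3 higher. Over all genes 49.9% were called (22.6% lower and 27.3% higher). *SPINK2* and *HLF*, with only 2 and 3 UMIs in AE, were called higher too (edgeR adjusted p = 5.94e-05 and 0.0132). *MECOM* was lower in Gran by a log2 fold change of -3.46 ± 0.28 (edgeR adjusted p = 2.74e-09). *PRDM16*, *CD34*, *THY1* and *PROCR* were lower by -3.20, -3.09, -2.81 and -2.57, the largest of their edgeR adjusted p-values being 1.19e-05. *MLLT3* was higher by 1.61 ± 0.16 and *MSI2* by 0.93 ± 0.25 (edgeR adjusted p = 6.56e-08 and 0.00367). *PROM1* was higher by 2.46 ± 0.67 (edgeR adjusted p = 0.00424), on 21 UMIs in Gran and 13 in AE, and this call was lost without predicted doublets (adjusted p = 0.137). Without organoid 32.7 the *PRDM16* value was -4.19. Without predicted doublets the values were -4.50 for *MECOM*, -3.66 for *THY1* and -3.36 for *PROCR*.

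In Mk, all 7 members with at least 10 UMIs there and in AE were called, 5 lower and 2 higher. Over all genes 56.7% were called (25.1% lower and 31.6% higher). *PROM1*, *SPINK2* and *HLF*, with 4, 5 and 2 UMIs in Mk, were tested too and were not called. *THY1* was lower by a log2 fold change of -5.42 ± 0.33 and *MECOM* by -4.52 ± 0.29 (edgeR adjusted p = 2.77e-11 and 5.49e-11). *PRDM16* (-3.91), *CD34* (-2.88) and *PROCR* (-2.70) were lower too, with edgeR adjusted p-values of at most 2.71e-07. *MLLT3* was higher by 2.82 ± 0.16 and *MSI2* by 1.74 ± 0.25 (edgeR adjusted p = 1.08e-11 and 4.15e-06). The median of the members with at least 10 UMIs in each class was -2.88 in Mk and -2.69 in Gran. Over all 10 members it was -1.87 and -0.82, against 0.12 and 0.06 over all genes. *RUNX1*, which drives the switch from endothelium to blood, was 6.64 and 6.22 CPM in AE, 590 and 659 CPM in Mk and 450 and 552 CPM in Gran.

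**Figure D2:**
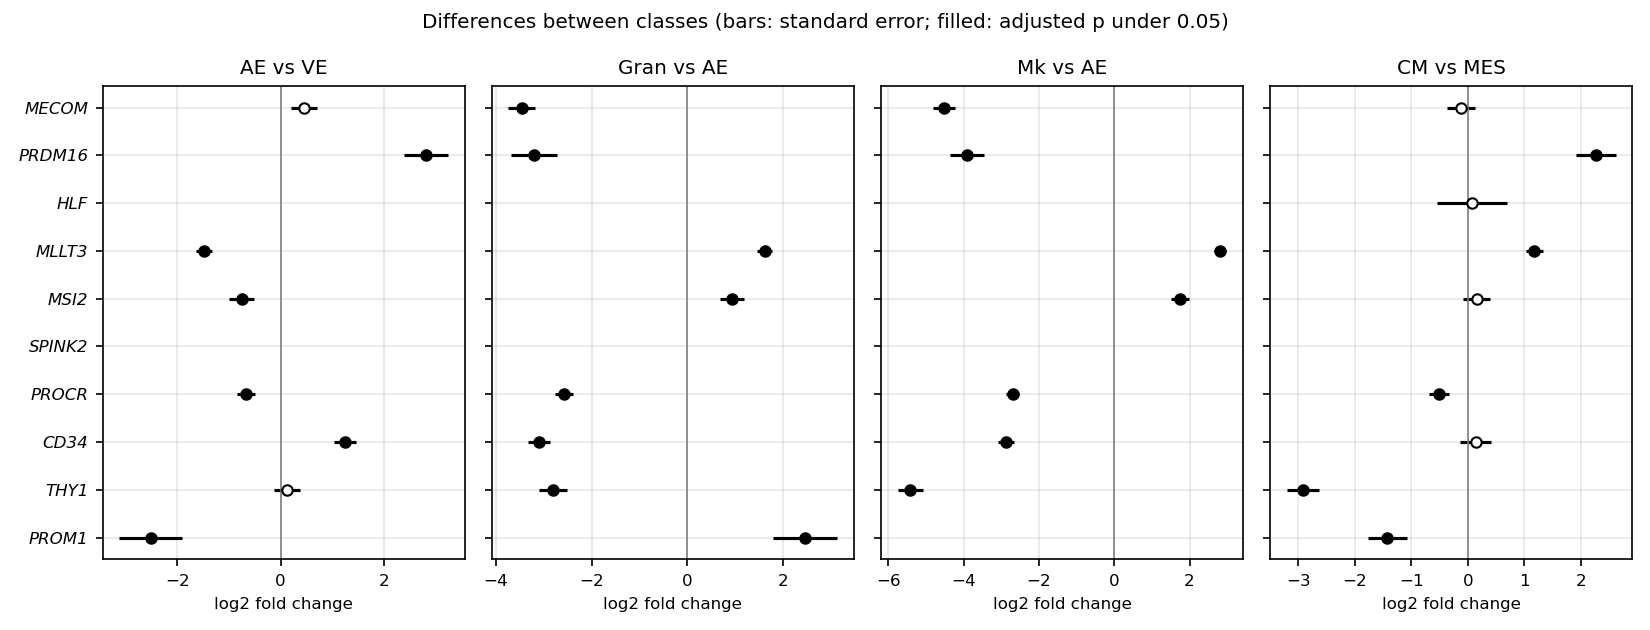
Log2 fold change of each member between pairs of classes, with its standard error as a bar. Filled points passed an adjusted p of 0.05 in edgeR's test, and a member with under 10 UMIs in either class has no point. *MECOM*, *PRDM16*, *PROCR*, *CD34* and *THY1* lie left of 0 in Gran and Mk against AE, and *MLLT3* and *MSI2* lie right of it.

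Among the blood classes, *MECOM* and *THY1* were higher in Gran than in Mk and Ery. Compared with Mk, where 43.9% of all genes were called (23.2% higher and 20.8% lower in Gran), *THY1* was higher in Gran by 2.61 ± 0.32 and *MECOM* by 1.07 ± 0.26 on the log2 scale (edgeR adjusted p = 1.69e-06 and 0.00239). *MLLT3* was lower by -1.21 ± 0.16 and *MSI2* by -0.82 ± 0.24 (edgeR adjusted p = 3.11e-06 and 0.00982). *CD34* differed by -0.22 ± 0.23 and *PROCR* by 0.13 ± 0.20 (edgeR adjusted p = 0.476 and 0.632). *SPINK2*, *PROM1* and *HLF*, with 5, 4 and 2 UMIs in Mk, were called higher in Gran too (edgeR adjusted p = 0.00141, 0.00169 and 0.0235). The *MECOM* call was lost without predicted doublets, where the difference was 0.32 (adjusted p = 0.329). Mk also pooled unlike clusters. *MECOM* was 54.5 and 64.0 CPM in the Mk cluster with 8 HPC markers raised, near Gran in organoid 33.10. In the other Mk cluster it was 13.6 and 20.2 CPM, so the comparison is with their average.

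Compared with Ery, where 41.2% of all genes were called (25.1% higher and 16.1% lower in Gran), *CD34* was higher in Gran by 3.29 ± 0.29 on the log2 scale, *THY1* by 2.53 ± 0.33, *MECOM* by 1.71 ± 0.27 and *PROCR* by 1.56 ± 0.22 (edgeR adjusted p of at most 3.5e-05). *MLLT3* was lower by -1.84 ± 0.16 (edgeR adjusted p = 1.39e-08). *MSI2* differed by -0.16 ± 0.24 and *PRDM16* by 1.27 ± 0.72 (edgeR adjusted p = 0.633 and 0.17). *SPINK2*, *PROM1* and *HLF*, with 2, 5 and 0 UMIs in Ery, were called higher in Gran as well (edgeR adjusted p = 0.00122, 0.012 and 0.00633).

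Gran and Mo were closer, with 18% of all genes called (6.37% higher and 11.6% lower in Gran). *MSI2* (0.82 ± 0.25), *CD34* (0.77 ± 0.25) and *MLLT3* (0.62 ± 0.16) were higher in Gran on the log2 scale (edgeR adjusted p = 0.0259, 0.0327 and 0.0108). These 3 calls were lost at a finer clustering, and without predicted doublets the *CD34* difference was 2.60. The *MECOM* difference of 0.35 ± 0.26 (edgeR adjusted p = 0.41) became 1.51 without predicted doublets (adjusted p = 0.000368), and that of *THY1*, 0.68 ± 0.30 (edgeR adjusted p = 0.125), became 1.92 (adjusted p = 0.000334). With each organoid as a block *THY1* also passed, at 0.68 (adjusted p = 0.0234). *SPINK2* and *HLF*, with 5 and 0 UMIs in Mo, were called higher in Gran (edgeR adjusted p = 0.0232 and 0.0243).

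The non-blood classes divided the members further. In PE/ST against MES, with 13.7% of all genes called (5.94% higher and 7.76% lower), *PRDM16* was lower by -2.62 ± 0.47 and *THY1* by -1.51 ± 0.27 on the log2 scale (edgeR adjusted p = 0.000703 and 0.000635). *MLLT3* was higher by 0.49 ± 0.15 (edgeR adjusted p = 0.0293), a call lost under several settings, and *MSI2*, at 0.46 ± 0.24 (edgeR adjusted p = 0.232), passed when each organoid was taken as a block (adjusted p = 0.00636). *SPINK2* had 52 UMIs in PE/ST and 35 in MES, summed over both organoids (edgeR adjusted p = 0.103). In CM against MES, with 37.6% of all genes called (18.6% higher and 19.1% lower), *PRDM16* was higher by 2.27 ± 0.35 and *MLLT3* by 1.18 ± 0.15 (edgeR adjusted p = 3.13e-05 and 3.37e-06). *THY1* was lower by -2.92 ± 0.28, *PROM1* by -1.42 ± 0.34 and *PROCR* by -0.51 ± 0.17 (edgeR adjusted p = 1.25e-07, 0.00266 and 0.0255). *SPINK2*, with 4 UMIs in CM, was called lower too (edgeR adjusted p = 0.0382). Without predicted doublets *THY1* was lower by -4.17, and with free RNA removed the *PROCR* call was lost (adjusted p = 0.0688).

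Across AE, Gran, Mo, Mk and Ery, endothelial transcripts moved with several of these values, but Ery/Mk did not follow. Summed over *CDH5*, *ROBO4*, *CLDN5*, *ECSCR*, *PLVAP* and *KDR*, all expressed by vessels, the level was 2886 and 2598 CPM in AE, 229 and 158 CPM in Gran, 180 and 118 CPM in Mo, 106 and 107 CPM in Mk and 34.9 and 34.8 CPM in Ery. Ery/Mk had 226 and 235 CPM of these genes, while its *MECOM* (27.8 and 49.3 CPM), *CD34* and *THY1* lay below both Gran values. Its *PROCR*, at 18.7 and 27.3 CPM, lay above them. MES had 189 and 169 CPM of the vessel genes. Per UMI of *CDH5*, an adhesion protein of endothelial junctions, *MECOM* had 3.00 and 3.71 UMIs in AE, 4.24 and 4.58 in Gran and 3.28 and 4.30 in Mo. The *MECOM* ratios of Gran and Mo lay close to that of AE. Those of other members varied by class. *THY1* had 0.805 and 0.842 UMIs per *CDH5* UMI in AE, 1.56 and 1.90 in Gran and 1.06 and 1.17 in Mo. *PROCR* had 0.358 and 0.342 in AE, 0.692 and 1.13 in Gran and 0.901 and 2.00 in Mo. In Mk the *MECOM* ratio was 5.01 and 10.1, and in MES, CM and PE/ST it was between 28.8 and 86.6. *CD34* had 0.630 and 0.832 UMIs per *CDH5* UMI in AE, 1.06 and 1.48 in Gran and 4.54 and 5.13 in Mk. In Mo the *CD34* ratio was 0.568 and 1.14, on both sides of the AE values. The part of endothelial RNA in the blood levels was not tested. Once predicted doublets were removed, *MECOM* stood at 51.7 and 29.0 CPM in Gran, and *CD34* stood at 17.3 and 17.7 CPM in Gran and 27.9 and 17.5 CPM in Mk. When 10% of each sum was removed in the proportions of the whole organoid, *MECOM* in Mk fell to 0.0995 and 8.96 CPM, while *CD34* in Mk stood at 25.4 and 15.8 CPM.

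**Figure D3:**
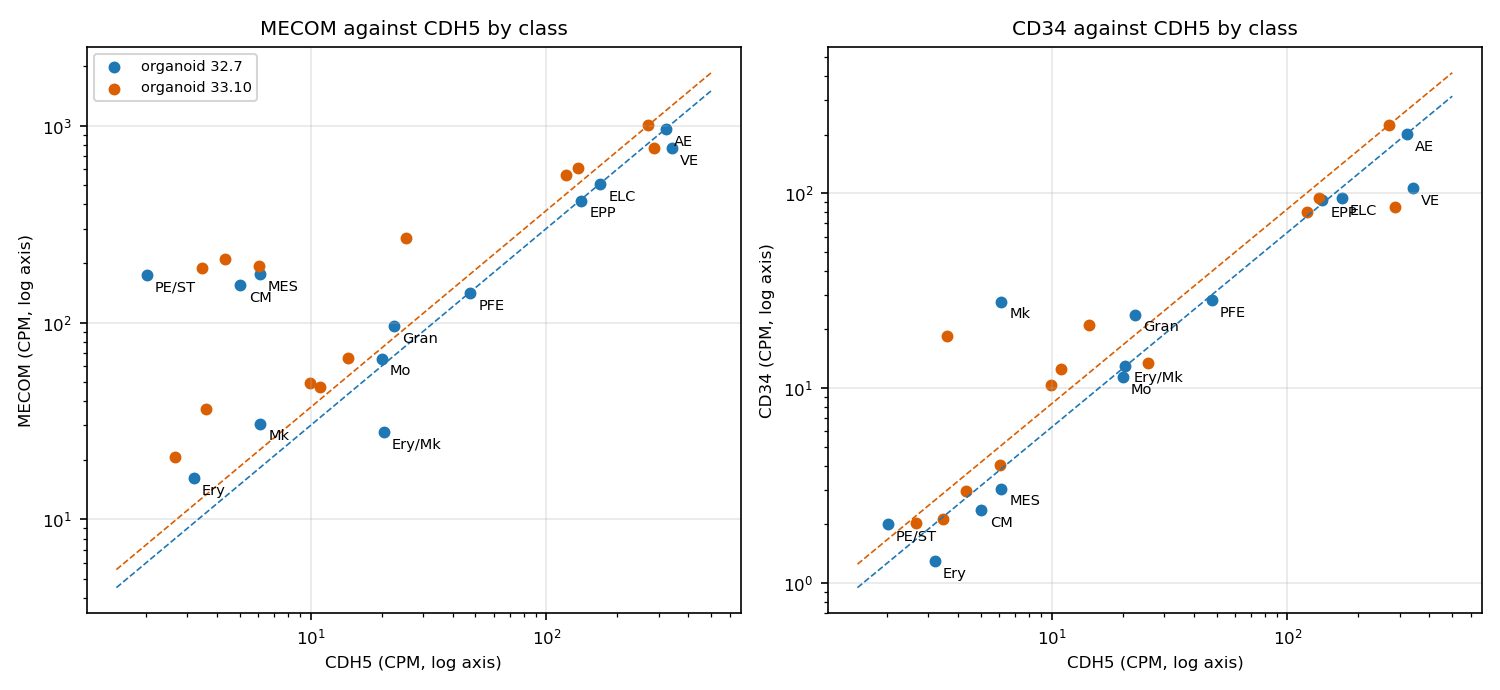
*MECOM* (left) and *CD34* (right) against *CDH5* in the 13 classes, in CPM on log axes, 1 point per class and organoid (blue 32.7, orange 33.10), with class names beside the points of organoid 32.7. Dashed lines mark the ratio found in AE of each organoid. Gran and Mo lie near the AE lines for *MECOM*, MES, CM and PE/ST lie far above them, and Mk lies above the AE lines for *CD34*.

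To compare cells at equal depth, each cell was thinned to 5000 UMIs and shallower cells were left out, 395 and 770 of the 2737 and 3080 AE and VE cells and 940 and 1727 of the 3328 and 5916 cells of the 5 blood classes. *RUNX1* was then found in 68.2% and 77.3% of Mk cells and 73.3% and 77.9% of Gran cells. In AE it was found in 2.52% (exact 95% interval 1.83 to 3.36) and 3.32% (2.51 to 4.31) of cells, and in VE in 3.70% and 3.36%. In CM, taken as a class that should lack *RUNX1*, the share was 3.96% and 5.86%. In PE/ST it was 2.78% and 5.14%. The shares in AE and VE were at or below those in CM and are not read as expression, and whether some of these cells express *RUNX1* cannot be told from them. Predicted doublets made up 15.1% of CM, 1.37% of AE and 3.38% of VE cells. Without them the share was 3.57% and 3.69% in CM, 2.33% and 3.22% in AE and 3.51% and 3.27% in VE. By protein staining, the study placed haemogenic endothelium with RUNX1 and CD31 in the outer layer of BG-HFOs. Without thinning it was 6.52% and 5.80% in AE and 7.86% and 11.1% in CM, at median depths of 11575 and 8597 UMIs in AE and 12072 and 10726 in CM. All such intervals cover counting error only.

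*MECOM* was common in endothelium with or without a *RUNX1* UMI, among 66 and 77 *RUNX1*-positive AE and VE cells. It was found in 57 of 66 (86.4%) and 71 of 77 (92.2%) of them, against 89.5% and 91.6% of the 2276 and 2233 *RUNX1*-negative cells. *CD34* was found in 62.1% and 53.2%, against 1137 of 2276 and 1097 of 2233. *THY1* was found in 53.0% and 46.8%, against 57.6% and 53.6%. *HLF*, *SPINK2* and *PROM1* were found in 0 of these cells, which allows a share of cells with a UMI of up to 4.55% and 3.90%. In the *RUNX1*-negative cells these genes were found in at most 0.439%, so a difference was not detectable at this depth. Transcripts of 15 blood genes were found in 66.7% and 75.3% of the *RUNX1*-positive and 56.7% and 69.8% of the *RUNX1*-negative cells, and their part in the shares was not tested.

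Summed and tested with each organoid as a block, none of the 6 members with at least 10 UMIs in each group was called, where 20 of 14744 genes (0.136%) were (0.0882% higher and 0.0475% lower), *RUNX1* among them by construction. Without adjustment 798 genes had a p under 0.05, and DESeq2 called 1 gene. *CD34* stood at 282 and 231 CPM against 194 and 192 CPM, with a log2 difference of 0.34 ± 0.13 (edgeR adjusted p = 0.68). *MECOM* differed by -0.10 ± 0.09, *THY1* by -0.31 ± 0.13, *MSI2* by 0.40 ± 0.20, *MLLT3* by 0.51 ± 0.37 and *PROCR* by -0.01 ± 0.16 (edgeR adjusted p = 0.953, 0.837, 0.896, 0.934 and 1.0). The median was 0.17 over these members and -0.05 over all genes. As *RUNX1* UMIs in AE and VE were not read as expression, this test cannot compare cells that express *RUNX1* with others.

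*RUNX1*-positive cells of the blood classes, 1423 and 2757 at equal depth, held the members sparsely. *MSI2* was found in 32.9% and 45.8% of them, *MLLT3* in 19.3% and 25.3% and *MECOM* in 168 and 304 cells. *CD34* was found in 6.18% and 5.44%, *PROCR* in 6.11% and 7.25% and *THY1* in 3.94% and 2.07%. The remaining members were all but missing, with *SPINK2* in 6 and 0 cells, *HLF* in 1 and 0, *PRDM16* in 2 and 6 and *PROM1* in 3 and 3.

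By class, *MECOM* was found in 19.7% and 19.6% of *RUNX1*-positive Gran cells, 11.2% and 11.1% of Mk, 10.5% and 9.33% of Mo and 7.11% and 7.43% of Ery. *MLLT3* was instead most frequent in Ery (38.7% and 35.0%) and Mk (25.5% and 25.5%), with Gran at 15.6% and 12.2% and Mo at 6.09% and 10.7%. *CD34* was found in 11.4% and 7.06% of Mk and in 5.58% and 8.78% of Gran. *MSI2* reached 46.2% and 50.1% in Mk.

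In *RUNX1*-positive Mo and Gran cells, *MECOM*, *CD34*, *THY1* and *PROCR* were found more often where endothelial transcripts were present. Among Mo cells with a UMI of the 6 vessel genes, *MECOM* was found in 27 of 73 and 12 of 47. Among those without, it was found in 18 of 354 and 9 of 178. *CD34* was found in 15.1% and 19.1% of Mo cells with such a UMI and 1.13% and 0.562% without. *THY1* was found in 17.8% and 21.3% with and 1.69% and 2.25% without. *MLLT3* (6.85% and 12.8% with, 5.93% and 10.1% without) and *MSI2* (20.5% and 25.5% with, 18.6% and 24.7% without) differed less in Mo. In Gran the *MECOM* counts were 28 of 68 and 15 of 29 with such a UMI, and 25 of 201 and 14 of 119 without. *THY1* in Gran was found in 23.5% and 24.1% with and 3.98% and 1.68% without. *PROCR* in Gran was found in 17.6% and 27.6% with and 3.48% and 3.36% without. In Gran *MLLT3* (19.1% and 24.1% with, 14.4% and 9.24% without) and *MSI2* (38.2% and 69.0% with, 32.3% and 37.8% without) were more frequent too. In Mk the *MECOM* counts were 13 of 101 and 45 of 362 with, and 38 of 354 and 127 of 1182 without. The *MECOM* shares in Mk were thus nearly equal. Other members in Mk varied. *THY1* was found in 2.97% and 3.59% with and 0.847% and 0.254% without. *PROCR* was found in 14.9% and 7.46% with and 4.52% and 5.92% without. *CD34* went both ways, at 9.90% and 9.67% with and 11.9% and 6.26% without.

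**Figure D4:**
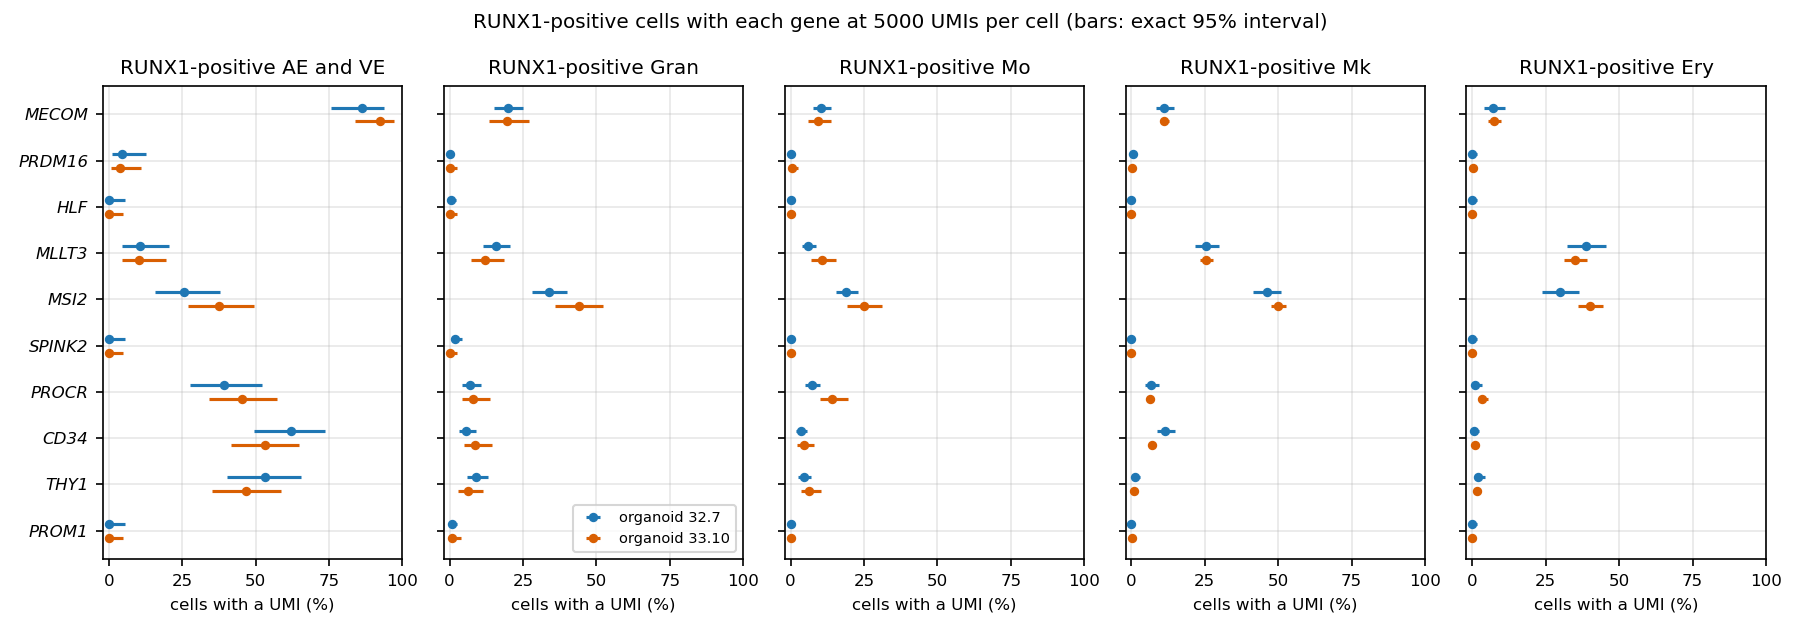
Share of *RUNX1*-positive cells with a UMI of each member after thinning to 5000 UMIs per cell, in AE and VE together and in Gran, Mo, Mk and Ery. Points are organoids (blue 32.7, orange 33.10) and bars are exact 95% binomial intervals. *MECOM* is found in 86.4% and 92.2% of the endothelial cells and in under 20% of each blood class, and *MLLT3* is most frequent in Ery.

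Few blood cells held several members at once. The median *RUNX1*-positive blood cell held 1 of the 10 genes, and 3 or more were found in 3.65% and 4.68% of these cells. In *RUNX1*-positive endothelium the median was 3, and 3 or more were found in 62.1% and 64.9%, against 60.5% and 59.1% of all AE and VE cells. *MECOM* and *CD34* were found together in 36 of 66 and 39 of 77 *RUNX1*-positive endothelial cells. In *RUNX1*-positive blood cells they were found together in 16 of 1423 and 39 of 2757. *MECOM* and *MLLT3* were found together in 6 of 66 and 8 of 77 of these endothelial cells. In these blood cells they were found together in 38 of 1423 and 88 of 2757.

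**Figure D5:**
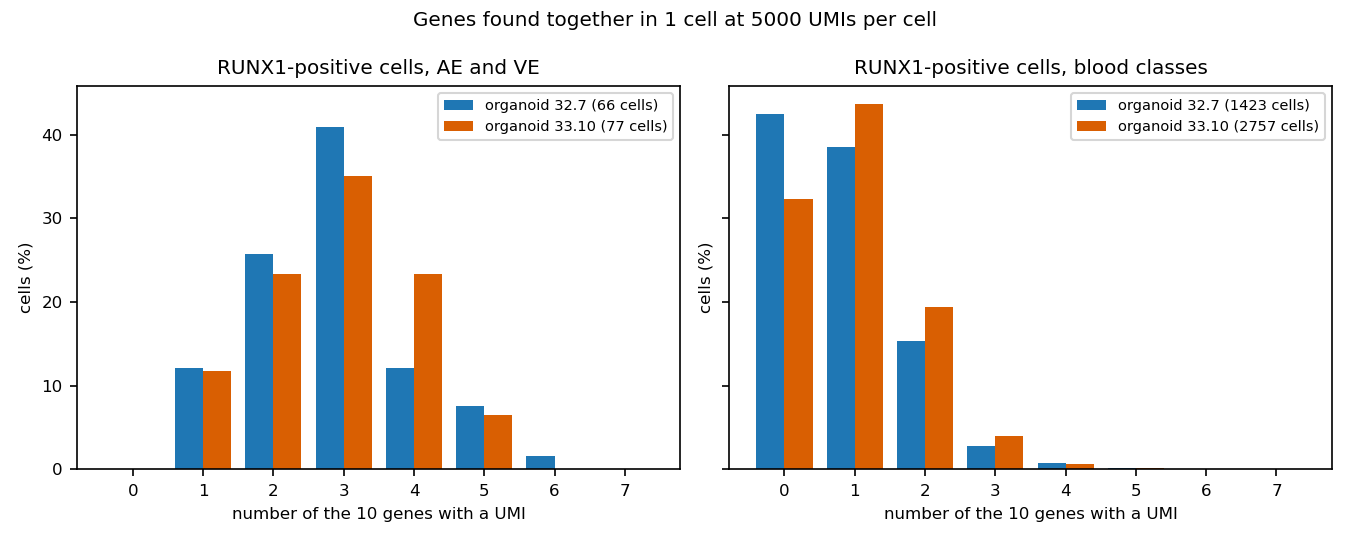
Number of the 10 genes with a UMI in each *RUNX1*-positive cell after thinning to 5000 UMIs, as a percentage of cells on the vertical axis, for AE and VE (66 and 77 cells) and for the blood classes (1423 and 2757 cells). Bars are organoids (blue 32.7, orange 33.10). Endothelial cells peak at 3 genes and blood cells at 0 or 1.

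The combination of *RUNX1*, *HOXA9*, *MLLT3*, *MECOM*, *HLF* and *SPINK2* is used as a transcriptional sign of newly formed human blood stem cells. No *RUNX1*-positive cell held all 6 genes or 5 of them. After thinning, 0 of 2339 *RUNX1*-positive cells of organoid 32.7 and 0 of 4103 of organoid 33.10 had all 6, which allows a share of up to 0.128% and 0.0731% for cells with a UMI of each gene, not for cells that express them. Only the other 5 genes were thinned here, and *HOXA9* was counted at full depth. *HOXA9*, a homeobox factor of definitive blood, had 3 UMIs in 2 cells and 1 UMI in 1 cell over both whole libraries, so the full combination could have been found in at most 3 cells. Without thinning, 19 of 4267 and 15 of 6695 *RUNX1*-positive cells held 4 of the 6. Of these, 7 were Gran cells of organoid 32.7 with *RUNX1*, *MLLT3*, *MECOM* and *SPINK2*, while in organoid 33.10 no Gran cell was among them. The blood classes held 10 of the 19 and 3 of the 15. The others lay in CM, MES, PE/ST, PFE, ELC and unnamed clusters.

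The genes with the most similar order over the 13 classes were found by Pearson's r of log2(CPM + 1) among 11292 genes that reached 20 CPM in a class. These values describe 13 points that share libraries and depth. For *MECOM* they were *DCHS1* (r = 0.985), *ROBO1* and *FZD4*, for *CD34* *RASGRP3* (r = 0.980), *BCL6B* and *TIE1*, and for *THY1* *PIEZO2* (r = 0.991), *HAPLN1* and *TM4SF1*. For *PROCR* they were *ATP8B1* (r = 0.975), *VAMP5* and *MICALL1*, and for *PRDM16* *A2M* (r = 0.913), *RALGPS1* and *LHX1*. *MLLT3* ran with *FAM118A* (r = 0.967), *DPF3* and *AC068587.4*, *MSI2* with *ZNF429* (r = 0.949), *ZNF846* and *PCYT1B*, and *PROM1* with *ARSE* (r = 0.978), *F10* and *SHISA2*. The rare genes had *DUSP9* (r = 0.960), *GOLT1A* and *RAB17* for *HLF* and *PLPPR3* (r = 0.850), *URI1* and *SPCS1* for *SPINK2*, at levels where single UMIs set the order.

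Of 33 other genes linked to blood stem and progenitor cells, several of which the study chose on these samples, 32 were tested, and in Gran against AE 16 were higher and 9 lower, beside 27.3% higher and 22.6% lower over all genes. *AVP*, a peptide hormone gene whose transcript marks primitive progenitors, was 39.1 and 54.2 CPM in Gran and 0.113 and 0.0869 CPM in AE, a log2 fold change of 8.83 ± 0.69 (edgeR adjusted p = 3.51e-09). Its AE values rest on 3 and 2 UMIs, so the size of this fold is uncertain. PFE also held *AVP*, at 54.9 and 28.2 CPM. *PTPRC*, the CD45 antigen of blood cells, was higher in Gran by 8.08 ± 0.63 and *MYB*, a progenitor transcription factor, by 8.02 ± 0.44 (edgeR adjusted p = 1.72e-09 and 1.73e-11). *SPN* (7.26), *GFI1* (6.50), *ANGPT1* (5.58), *GFI1B* (3.86), *ITGA2B* (3.51) and *HEMGN* (3.15) were higher too, with edgeR adjusted p-values of at most 0.00212. The *GFI1* fold rests on 5 and 2 UMIs in AE. *EMCN*, a sialomucin of vessels, was lower by -3.42 ± 0.31 (edgeR adjusted p = 1.68e-08). It is on the marker list that named the endothelial classes. Its difference was thus partly fixed by the naming and is not read as a result, though it is among the 9 lower. *AVP* and *MYB*, linked to progenitors, and the general blood cell gene *PTPRC* were thus high in Gran. There *MECOM*, *CD34*, *PROCR* and *THY1* were far below AE, and *HLF* had 7 UMIs in all. In Mk against AE 20 of the 32 were higher and 4 lower, beside 31.6% and 25.1% of all genes. In AE against VE 3 were higher and 9 lower, beside 7.6% and 10% of all genes.

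In *RUNX1*-positive against *RUNX1*-negative endothelium 1 of the 23 related genes tested was called. *CRHBP*, which encodes a binding protein of a stress hormone, stood at 555 and 190 CPM against 147 and 143 CPM, a log2 difference of 1.22 ± 0.12 (edgeR adjusted p = 4.44e-20). DESeq2 did not call it, nor did the fits without the block or at 3000 UMIs. *CRHBP* was higher in VE than in AE, at 503 and 440 CPM against 4.49 and 5.65 CPM (log2 fold change of AE against VE -6.45 ± 0.45, edgeR adjusted p = 9.37e-09). VE cells made up 33.3% of the *RUNX1*-positive and 25.1% of the *RUNX1*-negative cells of organoid 32.7, where the difference was larger, and 29.9% and 29.6% in organoid 33.10. The part of this share in the difference was not tested.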

How the data were processed

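Single-cell 3′ RNA libraries of 2 BG-HFOs were used. The authors made the deposited UMI counts with Cell Ranger 7.0.0 (GRCh38, intronic reads counted), before they removed free RNA. A cell was kept if it had 50 to 11000 genes and a mitochondrial share under 30%. Clustering used scanpy 1.11.5 and leidenalg 0.10.2 (Python 3.11.15) on 2990 of 3000 variable genes, 13 principal components, 20 neighbours and resolution 0.8. Clusters were named from fixed marker lists by a scoring rule written after the clusters were seen. The planned HPC class was not found, and Gran replaced it. The comparisons of Mk with AE and of CM with MES were added after the classes were seen.

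UMIs were summed per class and organoid, and 26 sums entered 1 fit of edgeR 4.0.16 (R 4.3.3, TMM, filter by expression, adjusted p under 0.05), with DESeq2 1.42.0 as an alternative. The test was checked on simulated counts. Members and lists were chosen with earlier results of these data known. Genes named are the 10 members, *RUNX1*, the 3 most similar genes of each member, and at most 10 called related genes by size of change in Gran against AE or in the *RUNX1* comparison. *KDR*, *CDH5* and the other vessel genes, and *DCN* and *LUM*, are from the marker lists. Fold changes of members and *RUNX1* are given where both classes hold at least 10 UMIs. This limit was not set for the related genes.

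Classes of 1 organoid share its number because they hold different cells of the same organoid and library. The organoid differences of 78 pairs of classes correlated between -0.00312 and 0.327 (median 0.107). Doublets were kept. Left to its own threshold, Scrublet marked 0.0% in organoid 32.7 and 19.6% in organoid 33.10, so the highest-scored 13.5% and 16.0% of cells were removed in the alternative instead.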

Additional observations from a re-analysis of the deposited data

How the results depend on the processing

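Over 77 fold changes of members and *RUNX1*, 488 tested values under other settings gave 466 with the same call, 14 that lost it and 8 that gained it. No value called in either setting changed direction. Some values called in neither did, such as *PROCR* in Gran against Mk, from 0.13 to -0.57 without predicted doublets. *CD34* in CM against MES likewise went from 0.14 to -0.57. With each organoid as a replicate block, PE/ST against MES called 4794 genes instead of 2970, and *MSI2* there, *THY1* in Gran against Mo (adjusted p = 0.0234) and *RUNX1* in Gran against Mk (adjusted p = 0.0464) passed. The block changed no other member's call. In *RUNX1*-positive against *RUNX1*-negative endothelium the 20 genes called became 1 with DESeq2, 3 with no replicate block, 8 at 3000 UMIs and 4 without cells that held blood transcripts. After removal of 10% of each sum as free RNA, sums of *RUNX1* in AE, *THY1* in Mk and *MECOM*, *CD34* and *THY1* in Ery were 0, so fitted values there are no measure of size, and *PRDM16* in Gran against Ery passed (adjusted p = 0.0255). The cause of these changes was not tested. At resolution 0.4 no comparison with Gran, Mo or PE/ST could be made, and leaving out an organoid leaves folds without a test. No cell held all 6 signature genes at 5000 or 3000 UMIs, unthinned, without doublets or in either organoid alone. *HLF*, *SPINK2* and *HOXA9* are limited by depth.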
